A study of Mus musculus with 6 samples.

Results

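Genes of endothelial junctions and of the endothelial surface were followed through RNA sequencing of retinal endothelial cell preparations from mouse pups. They were chosen by name, and 10 of 10 were found among the 24421 gene rows of the deposited table: Cdh5, Cldn5, Ocln, Tjp1, Esam, Pecam1, Icam2, Cd34, Emcn and Podxl. The mutant group held 3 libraries from pups with floxed Anxa3 alleles (Anxa3 fl/fl) and the Tie2-Cre transgene. The control group held 3 libraries from pups with the same floxed alleles and no Cre. All pups were on a C57BL/6 background at postnatal day 7. Tie2-Cre drives recombination in endothelial cells and in blood-lineage cells, and because controls lack Cre, Anxa3 loss and the presence of Cre cannot be told apart. Annexin A3 is a calcium-dependent phospholipid-binding protein, and the comparison was made to find genes affected by its loss that might relate to crossings of arteries and veins. The labels do not say how many pups or cultures each library represents, and the tests below compare libraries whose spread may be technical.

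Endothelial cells are held together by adherens junctions, built on VE-cadherin, and by tight junctions, in which claudins and occludin seal the cleft and zonula occludens proteins tie them to actin. In the retina these tight junctions form the inner blood-retina barrier. On the luminal side the cells carry sialomucins, heavily glycosylated proteins such as CD34, podocalyxin and endomucin, and immunoglobulin-family adhesion molecules that leukocytes use as they cross the vessel wall.

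FPKM values divide a gene's fragments by its length and by the depth of its library. Levels of different genes can therefore be set beside each other only as far as the gene lengths used hold. Over the 6 libraries, reads recovered from the FPKM steps and summed over gene rows came to 21386117 to 30904241 per library. Anxa3 measured 9.78, 12.5 and 15.1 FPKM in mutant replicates 1, 2 and 3, against 18.7, 17.7 and 43.4 FPKM in control replicates 1, 2 and 3. Each mutant lay below each control, yet Anxa3 RNA was still measured in the mutants. Its log2 difference was -0.93 with a standard error of 0.323 (limma adjusted p = 0.9998), and -0.53 without control replicate 3. The labelled cell type was checked against marker genes. A list of 15 endothelial genes with no overlap with the 10 summed to 513 to 673 FPKM in mutants and 490 to 1090 FPKM in controls. Photoreceptor markers were the more abundant, with 16 genes summing to 5295 to 6948 FPKM in mutants and 4415 to 6303 FPKM in controls. Endothelial and photoreceptor RNA were thus both present, and in bulk RNA fewer cells of a type and less RNA per cell cannot be told apart. Control replicate 3 stood apart before any test, with 2.173 times the summed endothelial reference and 0.72 times the summed photoreceptor markers of the mean of control replicates 1 and 2.

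Promoter sequences are shown for 4 of the genes because 3 of them (Cldn5, Cd34 and Emcn) went up and down together across the libraries, while Tjp1 did so less closely. RefSeq promoters on GRCm38.p6 covered 5 of the 10 genes, the fifth being Ocln with 2 start sites. Each runs 5′ to 3′ on the gene's own strand from 250 bases before the start site to 50 bases after it. Capitals mark 3 motif cores searched on both strands, GGAAG for ETS factors, ACAAT for SOX factors and CACCC for KLF factors, with no overlap between matches in these sequences. The windows are chr16:18776597-18776896 on the plus strand for Cldn5, chr1:194938571-194938870 on the plus strand for Cd34, chr3:137340828-137341127 on the plus strand for Emcn and chr7:65371195-65371494 on the minus strand for Tjp1, whose RefSeq start lies inside the span of the gene given further on.
Cldn5: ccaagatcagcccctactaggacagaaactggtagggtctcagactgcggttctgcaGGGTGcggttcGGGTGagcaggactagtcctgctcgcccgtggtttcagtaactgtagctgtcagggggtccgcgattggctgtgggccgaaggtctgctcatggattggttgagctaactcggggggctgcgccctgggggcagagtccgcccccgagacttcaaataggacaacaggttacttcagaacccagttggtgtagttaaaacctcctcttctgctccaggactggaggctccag
Cd34: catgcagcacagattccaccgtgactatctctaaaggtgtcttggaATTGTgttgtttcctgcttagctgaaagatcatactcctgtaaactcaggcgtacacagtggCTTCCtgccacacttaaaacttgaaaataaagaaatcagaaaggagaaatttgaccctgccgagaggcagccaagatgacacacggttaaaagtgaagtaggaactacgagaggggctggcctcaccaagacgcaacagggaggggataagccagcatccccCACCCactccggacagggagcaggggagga
Emcn: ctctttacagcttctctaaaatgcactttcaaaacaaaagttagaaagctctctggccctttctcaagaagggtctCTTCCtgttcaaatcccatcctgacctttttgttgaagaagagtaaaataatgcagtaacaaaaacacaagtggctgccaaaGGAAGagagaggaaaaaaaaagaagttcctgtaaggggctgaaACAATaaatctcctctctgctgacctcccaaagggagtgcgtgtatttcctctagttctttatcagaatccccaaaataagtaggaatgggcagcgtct
Tjp1: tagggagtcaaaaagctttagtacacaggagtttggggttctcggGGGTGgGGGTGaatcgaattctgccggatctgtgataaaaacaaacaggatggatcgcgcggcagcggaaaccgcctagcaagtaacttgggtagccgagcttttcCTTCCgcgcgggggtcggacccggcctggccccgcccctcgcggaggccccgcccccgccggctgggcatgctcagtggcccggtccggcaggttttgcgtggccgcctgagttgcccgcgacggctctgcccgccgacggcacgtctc

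The ETS core occurred 2 times in the Emcn window, starting 174 and 92 bases before the start site. It occurred 1 time in the Cd34 window, 142 bases before the start, and 1 time in the Tjp1 window, 99 bases before it. The Cldn5 window held 0 ETS cores and 2 KLF cores, 193 and 182 bases before the start. The Tjp1 window also held 2 KLF cores, 205 and 199 bases before the start, the Cd34 window 1 and the Emcn window 0. The SOX core was found 1 time in the Cd34 window and 1 time in the Emcn window. Such short motifs are common: of 32851 mouse promoters of the same length, 71.4% held at least 1 ETS core, 31.0% at least 1 SOX core and 57.5% at least 1 KLF core. At least 2 ETS cores were held by 37.9%, and at least 2 KLF cores by 25.7%. GC content was 41.0% for Emcn, 50% for Cd34, 58.3% for Cldn5 and 65.3% for Tjp1, against a median of 52.7% over all promoters. The matches describe letters in these windows and are not evidence of binding.

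No gene of the set passed the test between mutant and control libraries. All 10 passed the expression filter, and of these 0 had a limma adjusted p under 0.05 with Benjamini-Hochberg adjustment over the 13622 genes tested, where the background was 0%. Likewise 0 of 10 had an unadjusted p under 0.05 (background 1.21%), and the groups overlapped for 10 of 10, whereas they did not overlap for 4.35% of all genes and lay with mutants below controls for 1.56%. The log2 difference was below 0 for 9 of 10 genes, against 52.5% of all genes. Its median was -0.13 for the set and -0.01 for all genes tested. The largest difference in size was -0.24, for Pecam1. Limma's adjusted p was 0.9998 for each of the 10 genes. The shared direction rested on control replicate 3: once that library was omitted, 9 of the 10 were higher in mutants and 1 lower. Omitting any other single library left 7 to 10 of them lower. Most of the 10 also rose and fell together across libraries, so they do not count as separate results beside the share of all genes. Over all 6 libraries the 95% confidence intervals ran from -0.77 to 0.73 for Cldn5 at the widest. Podxl had the narrowest, -0.37 to 0.20. Changes of either sign lie within the interval of each gene, but their possible size differs between genes.

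**Figure D1:**
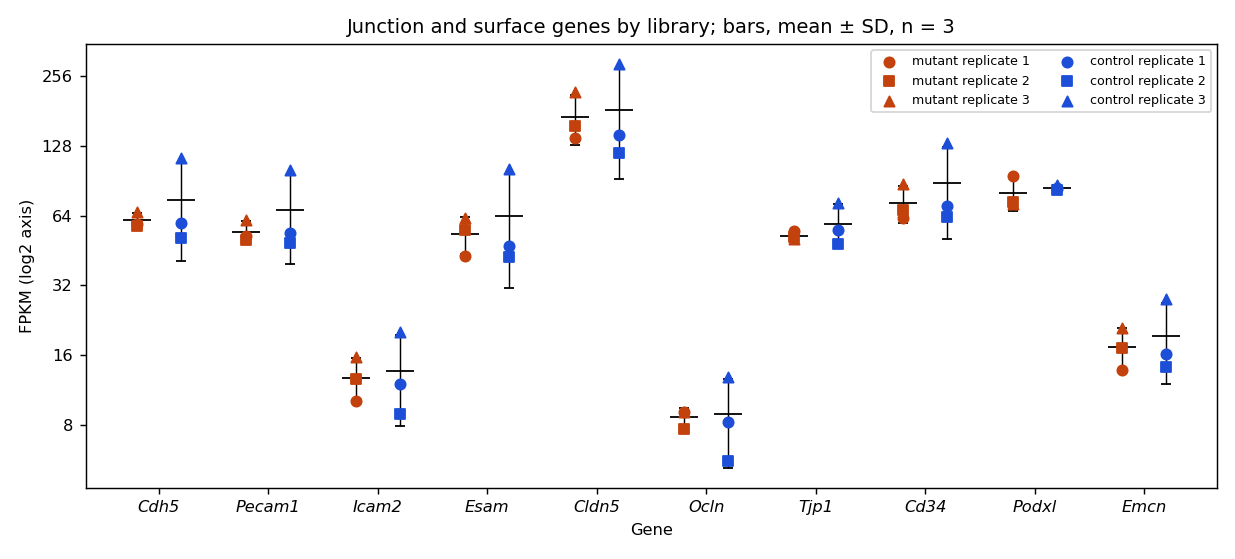
FPKM of the 10 genes in each library on a log2 axis, with mutant libraries left of control libraries for each gene, and bars for the mean ± SD of 3 libraries. Control replicate 3 is the highest library for 9 genes, and Podxl is highest in mutant replicate 1 at 94.7 FPKM.

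VE-cadherin, the adhesion molecule of endothelial adherens junctions, is encoded by Cdh5 at bases 104101625 to 104144511 of chromosome 8 (GRCm38, plus strand). Cdh5 measured 58.6, 57.9 and 66.4 FPKM in mutant replicates 1, 2 and 3, against 59.2, 51.2 and 113 FPKM in control replicates 1, 2 and 3. Control replicate 3 was well above the other 5 libraries, and control replicate 2 was the lowest. Means were 61.0 ± 4.69 FPKM in mutants and 74.4 ± 33.5 FPKM in controls (SD, n = 3 each). Mutant minus control gave -0.20 on the log2 scale, with a standard error of 0.264 (limma 95% confidence interval -0.81 to 0.41). Without control replicate 3 it was 0.14.

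Among 23 numbered cadherin rows Cdh5 had the highest mean. Cdh2, the neural cadherin that neurons, glia and mural cells use, came next at 47.1 ± 1.94 FPKM in mutants and 49.4 ± 3.48 FPKM in controls (SD, n = 3 each). Cdh5 made up 32.03%, 31.5% and 32.3% of summed cadherin FPKM in mutant replicates 1, 2 and 3, against 32.7%, 29.5% and 45.1% in control replicates 1, 2 and 3. Cdh2 in control replicate 3 was 1.12 times the mean of control replicates 1 and 2, while Cdh5 was 2.04 times that mean.

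PECAM-1, an immunoglobulin-family molecule of endothelial contacts also found on platelets and leukocytes, is encoded by Pecam1 at bases 106654217 to 106750628 of chromosome 11 (minus strand). Pecam1 measured 52.0, 50.1 and 61.5 FPKM in mutant replicates 1, 2 and 3, against 54.0, 48.9 and 100 FPKM in control replicates 1, 2 and 3. The spread followed that of Cdh5, with control replicate 3 alone above the mutants. On the log2 scale the groups differed by -0.24 with a standard error of 0.25018 (limma 95% confidence interval -0.82 to 0.34), and 0.08 without control replicate 3. Platelet and leukocyte markers were near 0, with 10 genes summing to 3.53 to 4.12 FPKM in mutants and 3.79 to 6.496 FPKM in controls.

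ICAM-2, a ligand of leukocyte integrins that endothelial cells carry without stimulation, is encoded by Icam2 on the same chromosome and strand, from 106377656 to 106388075. Icam2 and Pecam1 lie 266 kb apart with 2 protein-coding genes between them, Ern1 and Tex2, whose log2 differences were both -0.07. Icam2 measured 10.1, 12.6 and 15.7 FPKM in mutant replicates 1, 2 and 3, against 12.001, 8.97 and 20.2 FPKM in control replicates 1, 2 and 3. Each mutant library lay inside the range of the controls. The difference in log2(FPKM + 1) was -0.04 with a standard error of 0.271, and 0.26 without control replicate 3. Icam2 rested on the fewest reads of the set, 244 to 597 per library, which gives a counting error of 6.4% at the lowest. Icam1, the inducible relative, stood lower at 5.23 ± 0.460 FPKM in mutants and 5.76 ± 3.38 FPKM in controls (SD, n = 3 each).

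Claudin-5, the main claudin of endothelial tight junctions, is encoded by Cldn5 at bases 18776847 to 18778262 of chromosome 16 (plus strand). Cldn5 was the most abundant gene of the set, at 138, 156 and 217 FPKM in mutant replicates 1, 2 and 3, against 143, 119 and 287 FPKM in control replicates 1, 2 and 3. Replicate 3 was the highest library in each group, and the mutants lay within the control range. Means were 170 ± 41.4 FPKM in mutants and 183 ± 90.8 FPKM in controls (SD, n = 3 each). The fitted log2 difference was -0.02 with a standard error of 0.325 (limma 95% confidence interval -0.77 to 0.73), and 0.36 without control replicate 3.

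Of 23 claudin rows 4 reached a mean of 1 FPKM. Cldn5 held 87.6%, 90.4% and 93.7% of summed claudin FPKM in mutant replicates 1, 2 and 3, against 88.4%, 86.6% and 95.01% in control replicates 1, 2 and 3. Cldn12, a claudin found in many tissues, was next at 12.8 ± 2.95 FPKM in mutants and 12.8 ± 1.69 FPKM in controls (SD, n = 3 each). Cldn7 and Cldn15, known from epithelia, stayed between 0.69 and 2.62 FPKM over the 6 libraries. In control replicate 3 Cldn12 was 0.79 times the mean of control replicates 1 and 2, against 2.19 times for Cldn5.

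Occludin, a membrane protein that tight junctions of epithelium and endothelium share, is encoded by Ocln at bases 100496507 to 100552718 of chromosome 13 (minus strand). Ocln had the lowest FPKM of the set, at 9.12, 7.71 and 9.16 FPKM in mutant replicates 1, 2 and 3, against 8.30, 5.63 and 12.9 FPKM in control replicates 1, 2 and 3. The controls spread to both sides of the mutants. Ocln was also the only gene of the set with a positive log2 difference, 0.02 with a standard error of 0.245 (limma 95% confidence interval -0.55 to 0.59). That sign turned without mutant replicate 1, without mutant replicate 3 and without control replicate 2, at -0.01, -0.02 and -0.24. Its relatives Marveld1 and Marveld2, which carry the same membrane domain, measured 3.96 ± 0.418 and 1.63 ± 0.325 FPKM in mutants and 5.09 ± 2.32 and 1.81 ± 0.537 FPKM in controls (SD, n = 3 each).

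ZO-1, the scaffold that links claudins, occludin and cadherin complexes to actin in many cell types, is encoded by Tjp1 at bases 65296165 to 65527781 of chromosome 7 (minus strand). Tjp1 measured 54.8, 51.8 and 50.8 FPKM in mutant replicates 1, 2 and 3, against 55.5, 48.3 and 72.8 FPKM in control replicates 1, 2 and 3. The mutants were close together, with an SD of 2.10 FPKM, and control replicate 3 was 1.40 times the mean of control replicates 1 and 2, against 1.83 to 2.25 times for the other genes of the set except Podxl. The log2 difference was -0.14 with a standard error of 0.147 (limma 95% confidence interval -0.48 to 0.20), and 0.02 without control replicate 3. Tjp3, which encodes the epithelial ZO-3, stayed at 0.46 to 0.62 FPKM.

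ESAM, an immunoglobulin-family molecule of endothelial tight junctions, is encoded by Esam at bases 37528078 to 37538319 of chromosome 9 (plus strand). Esam measured 42.8, 55.2 and 62.2 FPKM in mutant replicates 1, 2 and 3, against 47.4, 42.6 and 101 FPKM in control replicates 1, 2 and 3. Control replicate 3 held 2.25 times the mean of control replicates 1 and 2, the widest such gap of the set. Mutant minus control gave -0.16 on the log2 scale, with a standard error of 0.309, and 0.23 without control replicate 3.

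Within the junctional adhesion molecule family Jam2 and Jam3 did not share the spread of Esam, while F11r did. Jam2 was the most abundant, at 76.6 ± 11.9 FPKM in mutants and 77.2 ± 10.6 FPKM in controls (SD, n = 3 each), and its level in control replicate 3 was 0.79 times the mean of the other 2 controls. Jam3 measured 22.3 ± 1.38 FPKM in mutants and 21.3 ± 1.81 FPKM in controls. F11r, which encodes JAM-A, measured 13.2 ± 1.44 FPKM in mutants and 16.6 ± 7.91 FPKM in controls, with control replicate 3 at 2.13 times the mean of the other 2 controls.

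**Figure D2:**
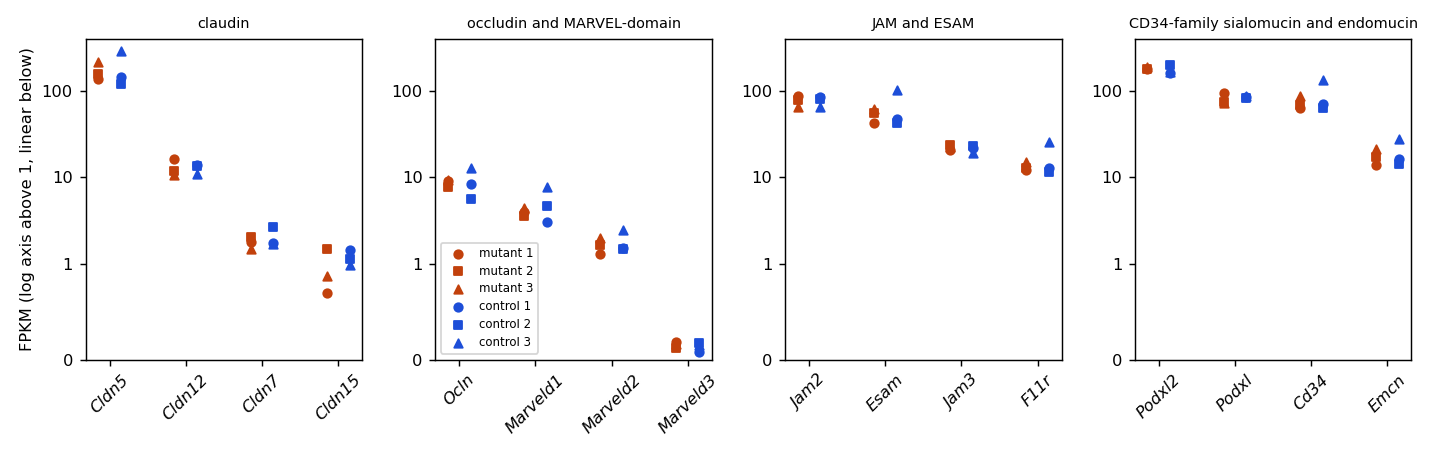
FPKM of up to 4 rows with the highest mean in 4 families, by library, with mutants left of controls for each gene and an axis that is logarithmic above 1 and linear below it. Cldn5 stands above the other claudins in each library, Ocln has the highest mean of its family, and Podxl2 lies above Podxl, Cd34 and Emcn.

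CD34, a sialomucin of small-vessel endothelium and of blood progenitors, is encoded by Cd34 at bases 194938819 to 194961279 of chromosome 1 (plus strand). Cd34 measured 62.4, 67.9 and 87.4 FPKM in mutant replicates 1, 2 and 3, against 70.1, 63.3 and 132 FPKM in control replicates 1, 2 and 3. Mutant replicate 1 was the lowest library and control replicate 3 the highest. On the log2 scale the groups differed by -0.22 with a standard error of 0.269 (limma 95% confidence interval -0.84 to 0.41), and 0.11 without control replicate 3. Cd34 exons share 148 of their 7290 bases with the antisense gene Gm16897, which stayed between 0.04 and 0.70 FPKM. Reads inside those 148 bases cannot be told apart because the library kit, TruSeq RNA v2, does not mark strand.

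Endomucin, a sialomucin that endothelium of veins and capillaries carries in adult mice, is encoded by Emcn at bases 137341067 to 137432185 of chromosome 3 (plus strand). Emcn measured 13.8, 17.2 and 20.99 FPKM in mutant replicates 1, 2 and 3, against 16.2, 14.3 and 27.9 FPKM in control replicates 1, 2 and 3. The order of libraries was like that of Cd34, with mutant replicate 1 lowest and control replicate 3 highest. The difference in log2(FPKM + 1) was -0.12 with a standard error of 0.247, and 0.16 without control replicate 3.

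Podocalyxin, a sialomucin of the apical face of endothelium, podocytes and some neurons, is encoded by Podxl at bases 31519488 to 31563981 of chromosome 6 (minus strand). Podxl measured 94.7, 73.3 and 72.0 FPKM in mutant replicates 1, 2 and 3, against 84.4, 82.1 and 86.3 FPKM in control replicates 1, 2 and 3. Here mutant replicate 1 was the highest library and mutant replicates 2 and 3 the lowest, with the 3 controls between them. Podxl was the only gene of the set whose controls were closer together than its mutants, with an SD of 12.7 FPKM in mutants and 2.09 FPKM in controls. The fitted log2 difference was -0.09 with a standard error of 0.124 (limma 95% confidence interval -0.37 to 0.20), and -0.07 without control replicate 3. Podxl2, which encodes the related endoglycan, known from neural tissue, was the most abundant of the sialomucin genes at 181 ± 7.21 FPKM in mutants and 176 ± 18.8 FPKM in controls (SD, n = 3 each).

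Over all 6 libraries the order of levels was Cldn5, Podxl, Cd34, Cdh5, Pecam1, Esam, Tjp1, Emcn, Icam2 and Ocln. Among the 9 neighbouring pairs, 6 kept this order in 6 of 6 libraries. The exceptions were Podxl above Cd34 in 4 of 6 libraries, Pecam1 above Esam in 3 of 6 and Esam above Tjp1 in 3 of 6, so these neighbours could not be ranked. Mean levels ran from 176 ± 63.5 FPKM for Cldn5 to 8.80 ± 2.39 FPKM for Ocln (SD over 6 libraries). This order depends on the gene lengths behind the FPKM values. Lengths recovered from those values were 2621 bases for Cd34 and 1461 for Emcn. All GENCODE exons of these genes together cover 7290 and 5409 bases, while for Cldn5 both lengths were 1416. The order under other lengths was not tested.

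The level of endothelial RNA itself differed between libraries, and the set was therefore also read against the mean of the 15 endothelial reference genes on the log2(FPKM + 1) scale. That mean was 4.59, 4.70 and 4.93 in mutant replicates 1, 2 and 3, against 4.59, 4.51 and 5.63 in control replicates 1, 2 and 3. Relative to it, 8 of the 10 genes varied less than their own levels did. The level of Cdh5 spanned 1.12 over the 6 libraries and its relative level 0.18. For Cd34 the spans were 1.07 and 0.17, and for Pecam1 1.02 and 0.22. Podxl and Tjp1 went the other way, spanning 0.39 as a level and 1.18 as a relative level for Podxl, and 0.58 and 0.66 for Tjp1.

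**Figure D3:**
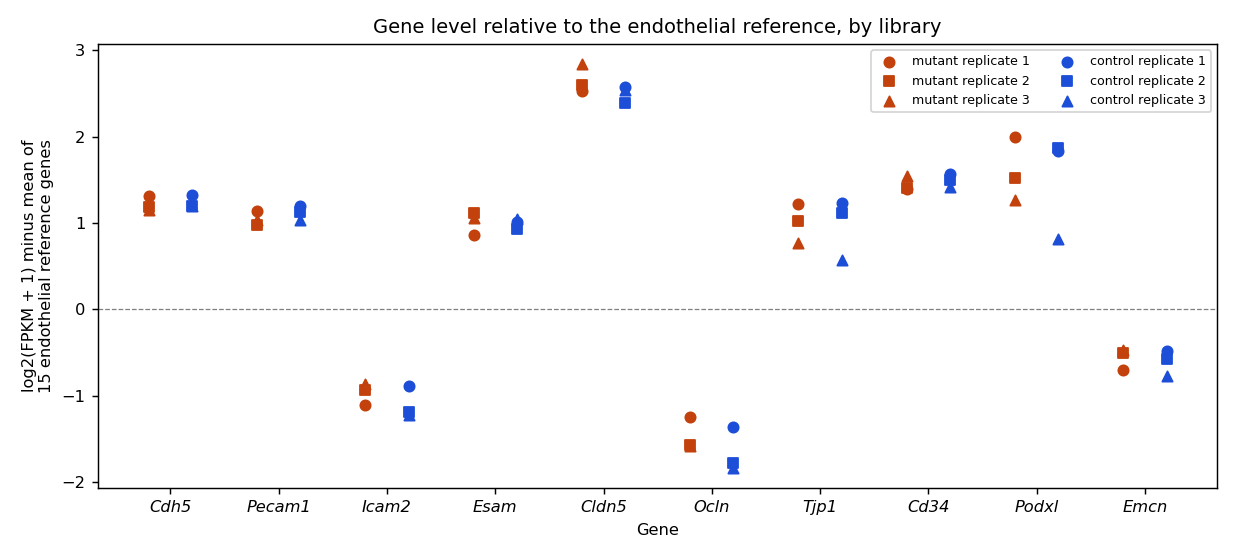
Log2(FPKM + 1) of each gene minus the mean of the 15 endothelial reference genes in the same library, with mutants left of controls. Cdh5, Cd34 and Pecam1 lie in narrow bands, whereas Podxl spans 1.18 with control replicate 3 lowest at 0.82.

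Relative levels did not part mutants from controls for any gene of the set. Cldn5 averaged 2.65 ± 0.16 in mutants and 2.503 ± 0.10 in controls (SD, n = 3 each), a difference of 0.15 with a two-sided exact permutation p = 0.3. Cdh5 averaged 1.21 ± 0.09 in mutants and 1.24 ± 0.07 in controls, a difference of -0.03 (exact permutation p = 0.5). The largest difference was that of Ocln, 0.19 (exact permutation p = 0.4), and for Podxl it was 0.09 (exact permutation p = 0.8). With 3 libraries against 3 the smallest two-sided p is 0.1, so no difference could have passed 0.05 in this test. Leaving out control replicate 3 turned the sign for Tjp1, Emcn and Podxl, at -0.17, -0.03 and -0.26.

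Across the 6 libraries, 8 of the 10 genes had a positive Pearson correlation with the endothelial reference at an unadjusted exact permutation p under 0.05, against 10.8% of all genes tested, and Podxl and Tjp1 did not. A positive Spearman correlation at that level was found for 3 of 10, Cldn5, Esam and Icam2, against 4.66% of all genes tested. Adjusted by Benjamini-Hochberg over the 13622 genes, 0 of 10 passed 0.05 by either measure. The 10 genes and the reference list were both chosen as endothelial genes, with earlier results of these data known. Their shares beside those of all genes are therefore no independent support. Esam had Pearson's r = 0.984 (exact permutation p = 0.00278, adjusted 0.133) and Spearman's rho = 0.943 (exact permutation p = 0.0167, adjusted 0.353). Cldn5 had r = 0.953 and rho = 0.943, with the same exact permutation p-values as Esam. Podxl had r = 0.00145 (exact permutation p = 0.999) and rho = -0.09 (exact permutation p = 0.919). Tjp1 had r = 0.865 (exact permutation p = 0.1, adjusted 0.332) and rho = 0.429 (exact permutation p = 0.419).

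The relation was also read without the libraries with the most endothelial RNA. Without mutant replicate 3 and control replicate 3, the libraries farthest from the median, r over the remaining 4 libraries was 0.951 for Cldn5, 0.907 for Esam, 0.861 for Icam2 and 0.758 for Emcn. It was 0.645 for Cdh5, 0.501 for Ocln, 0.489 for Cd34, 0.322 for Tjp1 and 0.09 for Pecam1. For these genes a relation apart from the omitted libraries was not shown. The remaining 4 libraries spanned only 4.51 to 4.70 in the reference mean, and r can fall from so narrow a range alone. They cannot decide which genes lean on the omitted libraries. Podxl had r = -0.54 over these 4 libraries, against 0.00145 over all 6. Spearman's rho was 0.771 for Cdh5 and Pecam1 and 0.714 for Cd34 (exact permutation p = 0.103, 0.103 and 0.136, adjusted 0.405, 0.405 and 0.413).

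**Figure D4:**
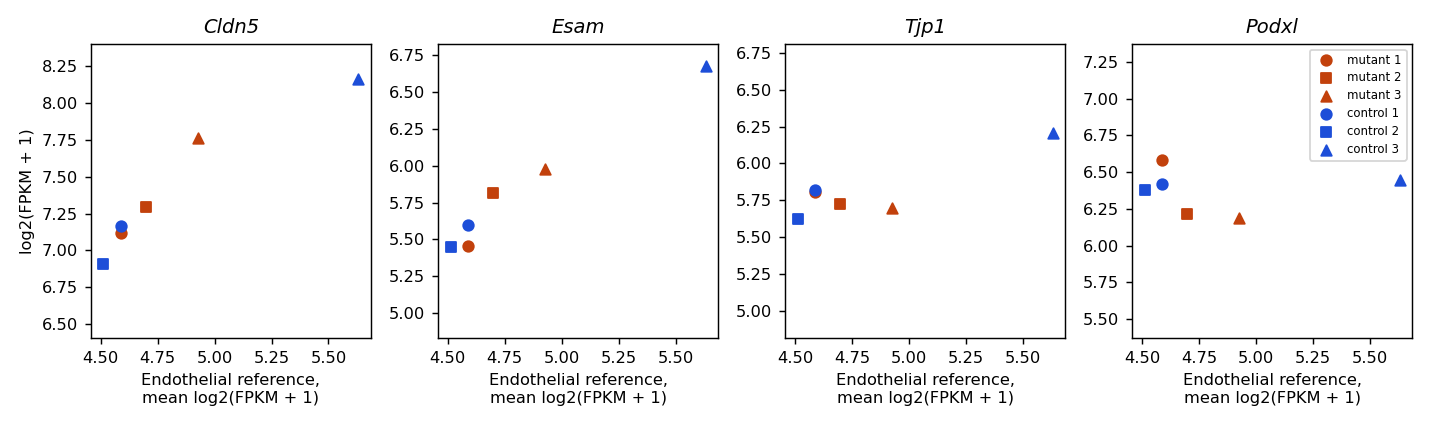
Log2(FPKM + 1) of Cldn5, Esam, Tjp1 and Podxl against the mean of the 15 endothelial reference genes, 1 point per library, with vertical axes of equal span. Cldn5 and Esam rise with the reference across the libraries, Tjp1 stands out in control replicate 3 alone, and Podxl is highest in mutant replicate 1.

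The genes closest in pattern, by Pearson's r over the 6 libraries among 10089 genes with a mean of at least 5 FPKM and outside the set, are given next. Cdh5 was closest to Vwf (r = 0.998), Sptan1 (r = 0.997) and Ptprb (r = 0.997), of which Vwf encodes the von Willebrand factor of endothelial granules and Ptprb, itself in the endothelial reference list, a phosphatase that binds VE-cadherin. Cldn5 was closest to Lrp5, a Wnt co-receptor, Rhoc and Tubb6 (r = 0.997, 0.997 and 0.996). For Podxl they were Rrm1, a subunit of ribonucleotide reductase, G3bp1 and Ugp2 (r = 0.993, 0.992 and 0.989), and for Tjp1 Atl3, Btbd3 and Sptbn1 (r = 0.994, 0.992 and 0.988). Ocln was closest to Rapgef5, Mki67 and Rassf9 (r = 0.990, 0.979 and 0.977), Mki67 being a marker of dividing cells. Esam was closest to Tm6sf1, Itpr1 and Ablim1 (r = 0.999, 0.998 and 0.998), and Pecam1 to Sri, Tnip1 and Ctsw (r = 0.999, 0.999 and 0.998). Icam2 was closest to Plk2, Fkbp7 and Rhoc (r = 0.992, 0.991 and 0.991), so Rhoc, a small GTPase of the actin cytoskeleton, stood near both Icam2 and Cldn5. Cd34 was closest to Rai14, Emp1 and Prkch (r = 0.998, 0.997 and 0.997), and Emcn to Arhgdib, Ostf1 and Sgk1 (r = 0.999, 0.996 and 0.996). With 6 libraries, many genes reach such values, and they describe these libraries.

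The labels give each library its own letter, A to F, and do not group the letters. A division into A to C and D to F was made here with earlier results known, and principal component 1 (44.9% of variance) parts the libraries the same way. Mutant replicate 1 and control replicates 1 and 2 are B, A and C, and mutant replicates 2 and 3 and control replicate 3 are E, F and D. The meaning of the letters is not stated. For 4 of the 10 genes, Cldn5, Esam, Icam2 and Emcn, each library of D to F lay above each library of A to C, as for 15.1% of all genes tested, and for 0 of 10 each lay below, as for 20% of all genes tested. For Cldn5 the mean of D to F was 1.65 times that of A to C, while for Podxl it was 0.89 times. Within A to C the mutant minus control difference on the log2 scale ran from -0.13 for Emcn to 0.37 for Ocln, with 6 of 10 genes above 0. Within D to F it ran from -0.85 for Cdh5 to -0.25 for Podxl, with 10 of 10 genes below 0, and control replicate 3 is the lone control there. Each set holds too few libraries for a test within it. With the sets as a block, the differences were all below 0, at -0.38 for Cdh5 and -0.43 for Esam, and 0 of 10 genes passed (limma adjusted p = 0.73 for Cdh5 and 0.718 for Esam).

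**Figure D5:**
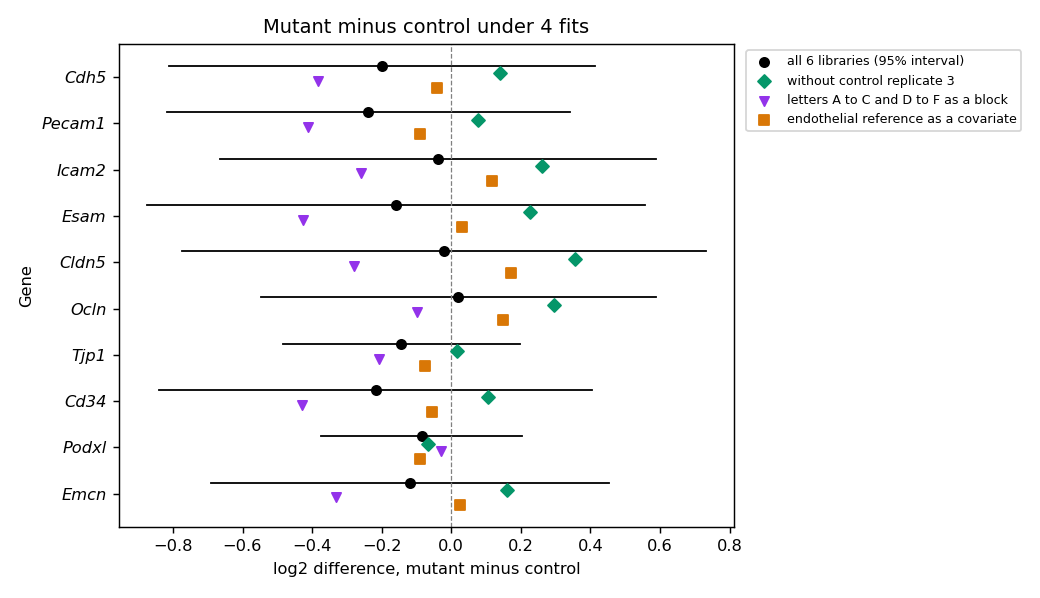
Log2 difference, mutant minus control, for each gene under 4 fits, with the 95% confidence interval of the fit to all 6 libraries. The fit without control replicate 3 puts 9 genes above 0, the block by letter puts 10 below 0, and each interval of the fit to all 6 libraries spans 0.

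Proteins that bind or assist these junctions gave no call either. Of 42 junction partner genes in the file 40 were tested, 32 lower and 8 higher in mutants, with 0 passing over all genes (limma, Benjamini-Hochberg), 0 at an unadjusted p under 0.05 and a median log2 difference of -0.08, beside -0.01 for all genes tested. Pard3, a polarity protein of forming junctions, measured 11.9 ± 0.172 FPKM in mutants and 13.8 ± 1.28 FPKM in controls (SD, n = 3 each), and its groups did not overlap. Cd99l2, an adhesion molecule in leukocyte passage, measured 8.78 ± 0.573 FPKM in mutants and 9.99 ± 0.477 FPKM in controls, again with no overlap. Groups did not overlap for 4.35% of all genes tested. Rap1b, a small GTPase that strengthens endothelial contacts, measured 46.3 ± 3.53 FPKM in mutants and 53.1 ± 7.72 FPKM in controls, and Gja1, a gap junction connexin, 12.2 ± 0.887 FPKM in mutants and 15.3 ± 4.72 FPKM in controls. These 4 genes were named for the smallest unadjusted p of the 40 tested, and limma's adjusted p was 0.9998 for each.

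Adaptors and glycosylation enzymes of the sialomucins gave 8 lower and 3 higher of 11 tested, with 0 passing, 0 at an unadjusted p under 0.05 and a median of -0.08. Ezr, which encodes the membrane-to-actin linker ezrin, measured 10.7 ± 2.04 FPKM in mutants and 12.5 ± 1.12 FPKM in controls (SD, n = 3 each). C1galt1, the enzyme that builds the core 1 O-glycan, measured 5.43 ± 0.593 FPKM in mutants and 6.496 ± 0.9998 FPKM in controls. Of 32 other endothelial surface genes tested, 30 were lower and 2 higher in mutants, with 0 passing, 0 at an unadjusted p under 0.05 and a median of -0.20, and they moved with control replicate 3, where their sum was 1.86 times the mean of the other 2 controls. Calcrl, the receptor for adrenomedullin, measured 5.87 ± 0.369 FPKM in mutants and 7.73 ± 2.53 FPKM in controls, and thrombomodulin (Thbd) 4.64 ± 0.918 FPKM in mutants and 6.28 ± 2.54 FPKM in controls. The endothelial reference list had 15 of 15 genes lower, with a median of -0.17.

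Markers of other cell types that could carry Tjp1, Ocln or Podxl RNA were also measured. Photoreceptor markers were higher in mutants for 13 of 16 genes, microglia and macrophage markers lower for 11 of 12 tested and pericyte and smooth muscle markers higher for 8 of 10 tested, with 0 of them passing. Pigment epithelium markers summed to 67.4 to 79.2 FPKM in mutants and 53.2 to 90.6 FPKM in controls, of which Rlbp1, shared with Muller glia, made up most, and 6 of the 10 fell under the filter. Muller glia and astrocyte markers summed to 462 to 564 FPKM in mutants and 525 to 547 FPKM in controls, and pericyte and smooth muscle markers to 225 to 272 FPKM in mutants and 190 to 359 FPKM in controls. Microglia and macrophage sums were 30.7, 62.1 and 82.3 FPKM in mutant replicates 1, 2 and 3. In control replicates 1, 2 and 3 they were 70.4, 71.2 and 51.9 FPKM, so these groups overlapped too. Inner retinal neuron markers summed to 442 to 458 FPKM in mutants and 370 to 483 FPKM in controls. No marker of these lists was at 0 in all libraries, and their part in the levels of the 10 genes was not tested.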

How the data were processed

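RNA was sequenced from 6 retinal endothelial cell preparations, 3 mutant and 3 control, grouped by title. Expression came as FPKM in a single table that the authors deposited. Per the submitters' processing notes, DESeq2, Cufflinks 2.2.1, STAR 2.5.0b and bedtools 2.17.0 were used with the mm10 build, with roles not stated. The authors' gene annotation is not given in the sources used here.

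Members and gene lists were chosen with earlier results of these data known. FPKM was tested with limma 3.58.1 (R 4.3.3, trended prior) on log2(FPKM + 1), which understates changes of low genes, in a two-sided test of the 13622 genes that reached 1 FPKM in 3 or more libraries. P-values were adjusted by Benjamini-Hochberg and called under 0.05. The design named edgeR only if values were counts, which they are not. Levels relative to 15 endothelial genes were compared with exact permutation tests over 20 arrangements.

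FPKM steps at miRNA loci gave the depth per library, and reads came out whole (within 0.003 reads, looser for high counts) for 16491 of 16491 rows above 0 in every library. The 10 genes had 244 to 13883 reads each. Intervals of counting error leave out variation between preparations.

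Named genes were the 10, Anxa3, up to 4 genes per list with the smallest p, up to 4 per family with the highest mean, and the 3 most alike in pattern. Ern1, Tex2 and Gm16897 were named for their position. Gene positions come from GENCODE M21 (GRCm38, which mm10 also names). Python 3.11.15, pandas 2.3.3, scipy 1.17.1 and matplotlib 3.10.9 were used. Alternatives were another pseudocount (0.1), filters, scalings, blocks, weights, a covariate, voom and omitted libraries.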

Additional observations from a re-analysis of the deposited data

How the results depend on the processing

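The count of genes called was 0, and became 145 with library weights. The weights were 0.295, 7.00 and 0.746 for mutant replicates 1, 2 and 3. For control replicates 1, 2 and 3 they were 0.747, 3.35 and 0.260. The weighted fit thus leaned mostly on replicate 2 of each group. The count of genes called was 0 to 0 over single omitted libraries, as was the count of the 10 genes called, which was 0 under each setting run. Limma on all 6 libraries had 165 genes at an unadjusted p under 0.05, and voom 97. Differences of the 10 genes kept their sign under the pseudocount, filter, scaling, voom and replicate block settings. With library weights, signs turned for Cdh5 (0.0905), Cldn5 (0.31), Tjp1 (0.0298), Esam (0.27), Icam2 (0.34), Cd34 (0.0412) and Emcn (0.18). With the endothelial covariate they turned for Cldn5 (0.17), Esam (0.0304), Icam2 (0.12) and Emcn (0.0243), and with the letter block for Ocln (-0.10). The cause was not tested. Over single omitted libraries the log2 differences ran from -0.42 to 0.14 for Cdh5, -0.28 to 0.36 for Cldn5, -0.24 to 0.30 for Ocln, -0.27 to 0.0172 for Tjp1, -0.39 to 0.23 for Esam, -0.43 to 0.0777 for Pecam1, -0.28 to 0.26 for Icam2, -0.42 to 0.11 for Cd34, -0.30 to 0.16 for Emcn and -0.21 to -0.02 for Podxl, and the upper bound came without control replicate 3 except for Podxl. Levels relative to the endothelial reference ran from -0.0759 to 0.0154 for Cdh5, -0.17 to 0.16 for Tjp1, -0.0382 to 0.0869 for Esam, -0.0300 to 0.12 for Emcn and -0.26 to 0.27 for Podxl, and kept their sign for the other 5 genes. Deviations of same-numbered mutant and control libraries correlated at 0.249, -0.151 and 0.391. Pairs with different numbers ran from -0.352 to 0.231. The labels do not say whether same-numbered libraries were paired, and so few values cannot decide it. With the replicate block 0 genes were called, 296 had an unadjusted p under 0.05, and the Cdh5 difference was -0.20. The deposited values are FPKM, and edgeR and DESeq2 were not run, while voom was run on the reads recovered from those values. Icam2, Ocln and Emcn rest on the fewest reads.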
